A study of Mus musculus with 12 samples.

Results

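Polyamine metabolism was followed in mouse Th17 cells through 9 genes chosen by name, Odc1, Amd1, Srm, Sms, Sat1, Smox, Oaz1, Oaz2 and Azin1. All 9 were found by symbol among the 55401 genes of the count table, and all 9 passed the filter on low counts. The 12 libraries of total RNA came from wild-type T cells of lymph nodes, labelled as Th17 cells differentiated from naive T cells and kept in RPMI with serum. They formed 4 groups of 3 libraries, one without an inhibitor (None) and the others treated for 4 h, per the labels, with Kira8, with Stattic, or with the pair of them (Kira8+Stattic). Kira8 is an inhibitor of the endoplasmic reticulum stress sensor IRE1alpha, and Stattic is an inhibitor of the transcription factor STAT3. Every group shared the wild-type genotype, the tissue of origin and the differentiation. Strain, age, dose and any solvent given to the None cells are not in the labels. Nor is the source of the replicates, such as a culture or an animal of their own, so the p-values measure the spread between these libraries, which may be technical.

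Polyamines are small positively charged molecules, putrescine, spermidine and spermine, that bind nucleic acids and are needed by dividing cells. Ornithine decarboxylase makes putrescine, and spermidine and spermine synthases then lengthen it with aminopropyl groups donated by decarboxylated S-adenosylmethionine, while SAT1 and spermine oxidase run the chain backwards. Antizymes bind ornithine decarboxylase and send it to the proteasome, antizyme inhibitor takes antizyme away, and spermidine is also the donor for the hypusine residue of the translation factor eIF5A. In T cells, activation raises polyamine synthesis, and the balance of the pathway has been linked to Th17 differentiation.

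The libraries of Kira8 replicate 2 and Stattic replicate 2 stood apart from the rest. They held 19.8 and 9.28 megacounts, and mitochondrial genes took 61.5% and 10.7% of them, whereas the other 10 libraries held 51.7 to 85.9 megacounts with 3.38% to 5.22% mitochondrial. Changes are therefore given first for the 10 libraries without this pair (3 None, 2 Kira8, 2 Stattic and 3 Kira8+Stattic), and then for all 12. Levels are CPM, the counts of a gene scaled to a fixed library total, after TMM scaling, a correction for composition. Changes are log2 differences with their standard error (SE) from edgeR's quasi-likelihood test, and a gene was called when its Benjamini-Hochberg adjusted p over all genes tested was under 0.05. No number of cells was recorded with the libraries, so fewer cells of a type and less RNA per cell cannot be told apart in any of these values.

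In the 10 libraries the spermidine and spermine synthases Srm and Sms were lower under each inhibitor and under both, and the catabolic genes Sat1 and Smox were higher. Ornithine decarboxylase, Odc1, was not called against None in any of the 3 comparisons. Amd1 fell with Kira8 and rose with Stattic. The antizymes and the antizyme inhibitor Azin1 rose with Stattic, with or without Kira8.

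With Kira8 against None, 6 of the 9 genes were called, 3 higher and 3 lower, where 19.3% of all 21239 genes tested were called (9.70% higher and 9.59% lower). With Stattic against None 8 of 9 were called, 6 higher and 2 lower, beside 39.0% of all genes (20.1% higher, 18.9% lower). With Kira8+Stattic against None the count was also 8, 6 higher and 2 lower, beside 40.8% of all genes (20.8% higher, 20.0% lower). All 9 genes had over 1 CPM in each of the 10 libraries, whereas the 21239 genes include many of lower count. Among the 14798 genes with more than 1 CPM in 2 libraries, 4518, 7918 and 8217 were called in these comparisons, which are larger shares. The median log2 change of the 9 genes was -0.13 with Kira8, 0.66 with Stattic and 0.91 with both, beside medians over all genes of 0, 0.08 and 0.09. These 3 comparisons share the None libraries. Fitted on all 12 libraries, edgeR called 1 of the 9 genes, Srm, in the Stattic and the Kira8+Stattic comparisons, beside 0.310% and 0.272% of the 20993 genes tested, and none in the Kira8 comparison, where 0% of all genes were called and 2689 had an unadjusted p under 0.05. The common dispersion, a measure of the spread between libraries of a group, was 1.01 in the 12 libraries and 0.143 in the 10. On the same 12 libraries, limma voom with library quality weights, which gives a deviating library less weight, called 7, 7 and 8 of the 9 genes, beside 22.3%, 37.1% and 47.4% of all genes.

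**Figure D1:**
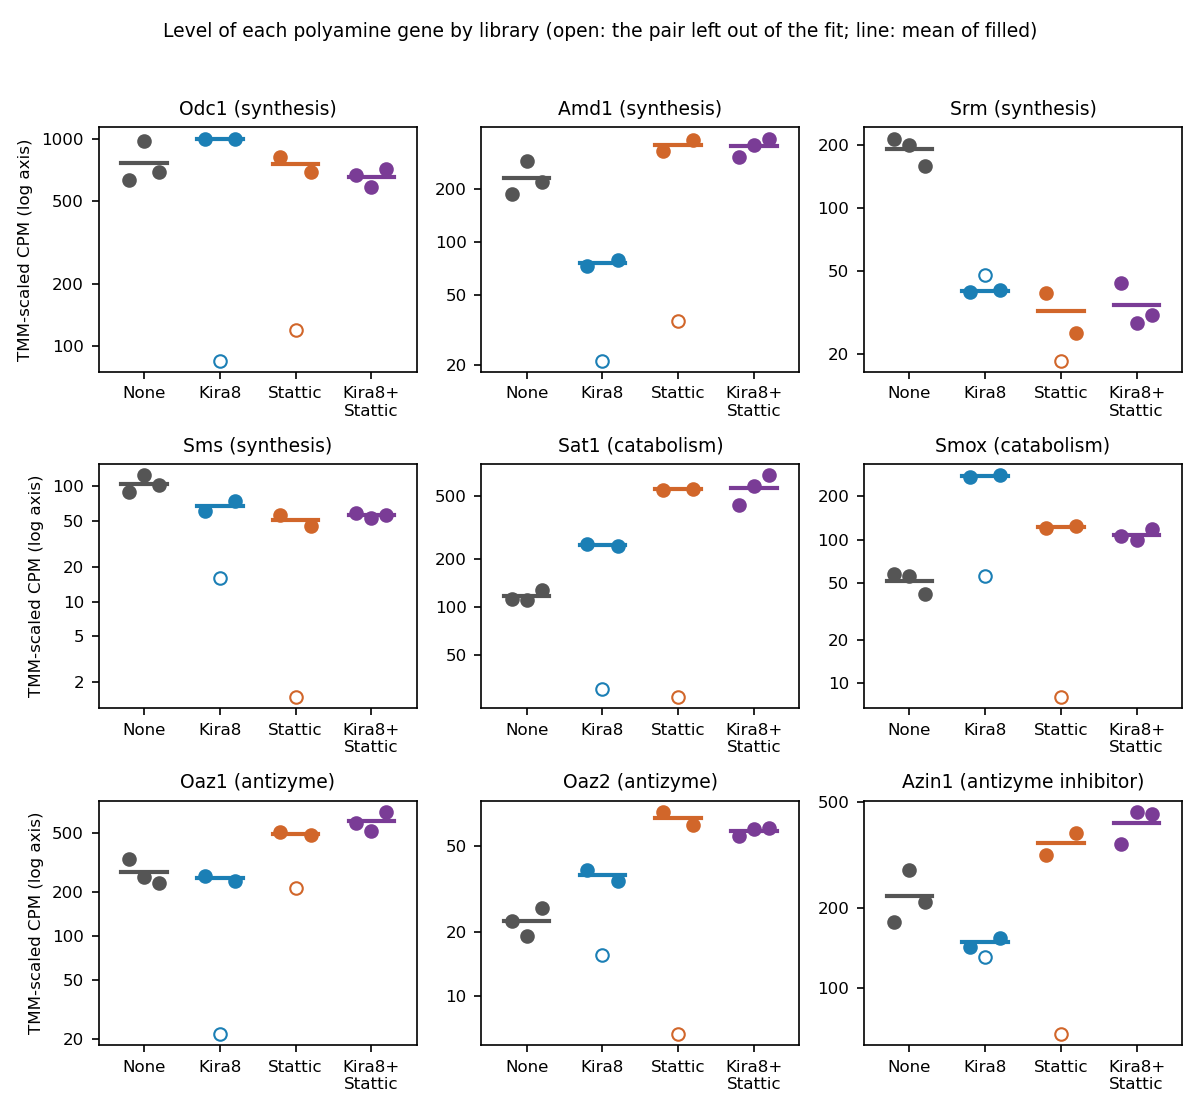
Level of each of the 9 genes in every library, in TMM-scaled CPM on a log axis, by group (None, Kira8, Stattic, Kira8+Stattic). Filled points are the 10 libraries fitted, open points are Kira8 replicate 2 and Stattic replicate 2, and each line is the mean of the filled points of a group. As plotted, both open points lie under every filled point for 7 of the 9 genes, all but Srm and Smox. Odc1, for instance, had 85.4 and 120 CPM in the open points. Filled points use the TMM factors of the 10 libraries and open points those of the 12. With the factors of the 12 throughout, Azin1 in Kira8 replicate 2 (132 CPM) lies above Kira8 replicate 1 (124 CPM). Likewise Oaz1 in Stattic replicate 2 (212 CPM) lies above None replicate 3 (198 CPM).

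Odc1, the enzyme that makes putrescine from ornithine (chromosome 12, 17544794 to 17551505, plus strand, mm10), had the highest level per kilobase of the 9 genes in None, at 226 ± 54.0 CPM per kb (SD, n = 3). Its levels in None were 636, 979 and 692 CPM, and in Kira8 replicates 1 and 3 they were 1004 and 1007 CPM. Both Kira8 libraries lay above all 3 None libraries, though replicate 2 of None was close to them. The Stattic libraries had 820 and 694 CPM and the Kira8+Stattic libraries 670, 590 and 720 CPM, and both ranges overlapped that of None. The log2 change was 0.39 ± 0.20 with Kira8 (adjusted p = 0.200), -0.02 ± 0.20 with Stattic (adjusted p = 0.940) and -0.22 ± 0.18 with both (adjusted p = 0.348), none of them called. Without None replicate 2 the Kira8 change was 0.60 and was called (adjusted p = 0.0326). With all 12 libraries it was -0.14 ± 0.79 with Kira8, the opposite sign, and the outlying libraries stood at 85.4 and 120 CPM for Kira8 and Stattic.

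Amd1 encodes S-adenosylmethionine decarboxylase, which makes the aminopropyl donor for both synthases (chromosome 10, 40287458 to 40302186, minus strand). It had 187, 287 and 217 CPM in None and 73.3 and 78.6 CPM in Kira8, a fall by 1.60 ± 0.20 on the log2 scale (3.03-fold lower, adjusted p = 0.000358). In Stattic it had 327 and 378 CPM and in Kira8+Stattic 302, 355 and 384 CPM. Among the 10 libraries every Kira8 library lay under, and every Stattic and Kira8+Stattic library above, the whole range of None. The rises were 0.61 ± 0.19 with Stattic (adjusted p = 0.0234) and 0.59 ± 0.17 with both (adjusted p = 0.0162). These are 1.53-fold and 1.51-fold rises, and both calls were lost without None replicate 3 (adjusted p = 0.0633 and 0.0536). The Stattic call was also lost without Stattic replicate 3 (0.50, adjusted p = 0.164), and the combined one without Kira8+Stattic replicate 3 (0.51, adjusted p = 0.0669). The Stattic value also missed the threshold with library size as the only scaling (0.46, adjusted p = 0.0531), in a fit of only the groups compared (0.60, adjusted p = 0.0676) and with library quality weights in limma voom on all 12 (0.55, adjusted p = 0.0644). With the outlying pair included the values were -1.97 ± 0.70, 0.09 ± 0.68 and 0.58 ± 0.68, with Amd1 at 21.3 CPM in the outlying Kira8 library and 35.8 CPM in the outlying Stattic library. Amd1 has 8 near-identical gene copies in the annotation. The largest of them, Amd2, is 99.6% identical over 3202 bases, and reads counted on the copies came to 12.4% to 15.1% of the sum, so the division of reads between Amd1 and Amd2 is uncertain. Amd2 itself fell with Kira8 (-1.51 ± 0.20) and rose with Stattic (0.55 ± 0.19) and with both (0.54 ± 0.17), all called, and with the outlying pair included its Kira8 change was -0.95 ± 0.44.

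Srm, spermidine synthase (chromosome 4, 148591503 to 148594993, plus strand), was the member with the largest fall in each of the 3 comparisons with None. Its levels were 215, 200 and 160 CPM in None, 39.9 and 40.7 CPM in Kira8, 39.2 and 25.4 CPM in Stattic, and 44.1, 28.3 and 30.8 CPM in Kira8+Stattic. All 7 inhibitor libraries lay under every None library, between 25.4 and 44.1 CPM. The fold decrease was 4.75 with Kira8, 5.93 with Stattic and 5.57 with both, or -2.25 ± 0.25 (adjusted p = 0.000172), -2.57 ± 0.25 (adjusted p = 1.7e-05) and -2.48 ± 0.22 (adjusted p = 4.68e-06) on the log2 scale. The outlying libraries had Srm at 47.8 CPM (Kira8) and 18.7 CPM (Stattic), near the other libraries of their groups. Over all 12 libraries the changes were -2.10 ± 0.37, -2.76 ± 0.38 and -2.50 ± 0.38, and the calls held with Stattic (adjusted p = 0.0224) and with both (adjusted p = 0.0404) but not with Kira8 (adjusted p = 0.275).

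Sms, spermine synthase (chromosome X, 157443855 to 157492287, minus strand), fell less than Srm. It had 88.0, 124 and 102 CPM in None, 60.3 and 74.4 CPM in Kira8, 56.1 and 44.8 CPM in Stattic, and 58.6, 53.4 and 55.9 CPM in Kira8+Stattic. No inhibitor library reached the lowest None library. The log2 changes were -0.63 ± 0.18 (adjusted p = 0.0289), -1.05 ± 0.18 (adjusted p = 0.000846) and -0.90 ± 0.16 (adjusted p = 0.000797) with Kira8, Stattic and both. The Kira8 call was lost without None replicate 2 (-0.49, adjusted p = 0.0792), without Kira8 replicate 1 (-0.49, adjusted p = 0.275) or without Kira8 replicate 3 (-0.79, adjusted p = 0.0824). With a term for replicate number added to the fit, the Kira8 call was lost as well (-0.58, adjusted p = 0.0568). The 12-library changes were -1.04 ± 0.86, -1.63 ± 0.87 and -0.92 ± 0.86, and the outlying Stattic library held only 13 Sms counts, 1.49 CPM. A pseudogene, Sms-ps, is identical to Sms over 1101 bases, and near-identical copies held 20.5% to 26.6% of the summed counts. With all near-identical copies added to their parent genes, the number of members called was the same in all 7 comparisons.

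The 250 bases upstream of annotated starts were read for the 7 members that matched the RefSeq promoter table (GRCm38.p6), which had no entry for Srm and Azin1. On both strands 5 motifs were searched. They were CACGTG (the E-box bound by MYC and MAX), TGATGNAAN (an ATF4 element), GAANNTTC (a heat shock element core), TTCNNNGAA (a STAT element) and TGANTCA (an AP-1 element), which occur in 6.02%, 3.44%, 6.69%, 7.02% and 6.75% of the 32851 promoters of the table. A single match was found, a CACGTG at positions -196 to -191 relative to the first of the Sms starts. With each motif in 3.44% to 7.02% of all promoters, a single match among these windows is not read as a result about Sms or Myc. The window is chrX:157492288-157492537 on the minus strand, with the match in capitals, and a match of letters does not show that a factor binds there.
Sms upstream window: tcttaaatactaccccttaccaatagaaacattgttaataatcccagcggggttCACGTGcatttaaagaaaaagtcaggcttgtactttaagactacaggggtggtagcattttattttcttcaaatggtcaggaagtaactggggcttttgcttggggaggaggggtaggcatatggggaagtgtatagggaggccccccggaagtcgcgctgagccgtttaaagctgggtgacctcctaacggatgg
No other motif overlapped it, and the second Sms start, and the windows of Odc1, Amd1, Sat1, Smox, Oaz1 and Oaz2, held none of the 5.

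Sat1 encodes spermidine/spermine N1-acetyltransferase, the entry step of polyamine breakdown and export (chromosome X, 155213132 to 155216449, minus strand). It had 112, 110 and 127 CPM in None, 248 and 241 CPM in Kira8, 546 and 548 CPM in Stattic, and 438, 578 and 673 CPM in Kira8+Stattic. The Kira8 libraries stood clear of None, and the libraries with Stattic stood clear of both. Sat1 was 2.10-fold higher with Kira8 (1.07 ± 0.18, adjusted p = 0.00168), 4.70-fold higher with Stattic (2.23 ± 0.18, adjusted p = 4.98e-06) and 4.83-fold higher with both (2.27 ± 0.17, adjusted p = 1.81e-06). With the outlying pair included they were 0.58 ± 0.87, 1.67 ± 0.89 and 2.26 ± 0.91, none called. The outlying libraries ran against their groups, with 30.4 CPM (Kira8) and 26.9 CPM (Stattic), under every None library.

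Smox, spermine oxidase, which turns spermine back into spermidine with release of hydrogen peroxide (chromosome 2, 131491496 to 131525922, plus strand), showed the opposite order of the inhibitors. Its levels were 57.4, 56.3 and 42.2 CPM in None, 274 and 281 CPM in Kira8, 120 and 125 CPM in Stattic, and 107, 99.7 and 118 CPM in Kira8+Stattic. The Kira8 libraries were the highest and the None libraries the lowest, with no overlap between any of the groups. Smox was 5.34-fold higher with Kira8 (2.42 ± 0.16, adjusted p = 1.49e-05), 2.36-fold higher with Stattic (1.24 ± 0.16, adjusted p = 0.000115) and 2.08-fold higher with both (1.06 ± 0.15, adjusted p = 0.000148). Over all 12 libraries they were 1.98 ± 0.79, 0.69 ± 0.77 and 1.04 ± 0.77, none called, with 56.4 CPM in the outlying Kira8 library and 8.02 CPM in the outlying Stattic library. No near-identical copy of Smox was found.

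Oaz1, the main antizyme, is translated through a frameshift that polyamines promote, in which the ribosome skips a base at the stop codon of the first frame, and Oaz2 is a second antizyme made the same way. The shift site, given here because it is the feature that ties antizyme protein to polyamine level, was read from the mm10 genome at chr10:80828280-80828309 for Oaz1 and chr9:65686257-65686286 for Oaz2, both on the plus strand. The capitals mark TCCTGAT, whose T at place 4, at position 80828295 of chromosome 10 and 65686272 of chromosome 9, is left out of the annotated coding sequence (in 3 coding transcripts of Oaz1 and 2 of Oaz2).
Oaz1 shift site: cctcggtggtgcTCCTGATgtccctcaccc
Oaz2 shift site: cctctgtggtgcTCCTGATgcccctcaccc
The sites were identical in 28 of 30 bases, with the substitutions G5T and T21C from Oaz1 to Oaz2, counted from 1 at the 5′ end. RNA counts do not measure the frameshift, so the values that follow are transcript levels only.

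Oaz1 (chromosome 10, 80826656 to 80829290, plus strand) had 332, 250 and 227 CPM in None and 255 and 238 CPM in Kira8, with overlapping ranges. It had 505 and 482 CPM in Stattic and 588, 515 and 697 CPM in Kira8+Stattic, all above None. The log2 change was -0.13 ± 0.19 with Kira8 (adjusted p = 0.703), 0.87 ± 0.19 with Stattic (adjusted p = 0.00328) and 1.15 ± 0.17 with both (adjusted p = 0.000239). In the 10 libraries Oaz2 (chromosome 9, 65668001 to 65690300, plus strand) had lower levels than Oaz1 and rose under every treatment. Its levels were 22.4, 19.1 and 25.9 CPM in None, 38.8 and 34.5 CPM in Kira8, 72.4 and 62.6 CPM in Stattic, and 55.8, 60.0 and 61.2 CPM in Kira8+Stattic, with no overlap between any of the groups. Its changes were 0.70 ± 0.16 (adjusted p = 0.00958), 1.59 ± 0.16 (adjusted p = 2.05e-05) and 1.39 ± 0.15 (adjusted p = 2e-05). The Kira8 call of Oaz2 was lost without Kira8 replicate 1 (0.62, adjusted p = 0.112) or replicate 3 (0.79, adjusted p = 0.0502). The outlying Kira8 and Stattic libraries ran against their groups for Oaz2, with 15.6 and 6.65 CPM, under every None library. For Oaz1 they had 21.5 and 212 CPM. The 12-library log2 changes of Oaz1 were -0.66 ± 0.67, 0.58 ± 0.67 and 1.13 ± 0.68 and those of Oaz2 0.43 ± 0.64, 1.06 ± 0.65 and 1.38 ± 0.65, none called.

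Azin1, the antizyme inhibitor, resembles ornithine decarboxylase but has no enzyme activity and protects the enzyme by occupying antizyme (chromosome 15, 38487427 to 38519266, minus strand). It had 178, 278 and 212 CPM in None, 143 and 155 CPM in Kira8, 318 and 384 CPM in Stattic, and 347, 460 and 451 CPM in Kira8+Stattic. Among the 10 libraries those of Kira8 lay under None, and those with Stattic above it. Its log2 change with Kira8 was -0.58 ± 0.21 and was not called (adjusted p = 0.0729), although it was called by DESeq2 (adjusted p = 0.0279) and with library size as the only scaling (adjusted p = 0.0454). The rises were 0.66 ± 0.20 with Stattic (adjusted p = 0.0222) and 0.91 ± 0.18 with both (adjusted p = 0.00185). The Stattic call was lost without None replicate 3 (0.63, adjusted p = 0.0590) or Stattic replicate 3 (0.51, adjusted p = 0.175), and in a fit of only the groups compared (0.64, adjusted p = 0.0568). The 12-library values were -0.58 ± 0.51, 0.21 ± 0.51 and 0.90 ± 0.51, with 132 CPM and 67.4 CPM in the outlying Kira8 and Stattic libraries. An antisense gene, Gm49077, overlaps 358 bases of its exons and had at most 70 counts in a library, and whether counting used strand is not given in the sources used here.

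**Figure D2:**
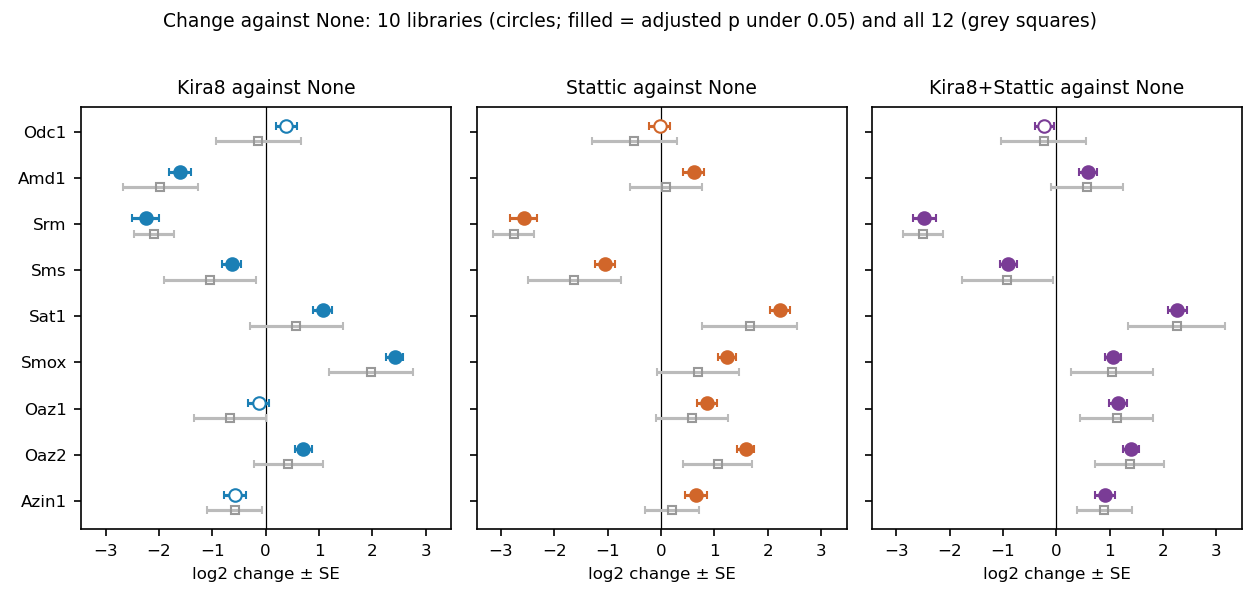
Log2 change ± SE of the 9 genes with Kira8, Stattic and both against None. Coloured circles are the fit of 10 libraries (filled where the adjusted p is under 0.05) and grey squares the fit of all 12, whose error bars are wider for every gene. Srm lies furthest to the left in every panel, from -2.25 to -2.57, and Smox with Kira8 furthest to the right among the Kira8 values, at 2.42.

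Levels per kilobase of exon put the members in a different order in each group, and between genes they are approximate. Length is the union of all annotated exons, 2558 bases in 2 blocks for Oaz1, which can exceed the transcript in use. Near-identical copies also held 12.4% to 15.1% of the summed counts of Amd1 and 20.5% to 26.6% of those of Sms. In None, Odc1 led at 226 ± 54.0 CPM per kb, followed by Srm at 120 ± 18.0 and Oaz1 at 105 ± 21.6, which did not differ beyond their spread. Amd1 (65.0 ± 14.4), Sat1 (42.0 ± 3.47) and Azin1 (35.6 ± 8.11) came next, with Sat1 and Azin1 within each other's spread, and Sms (17.4 ± 3.02), Smox (13.3 ± 2.18) and Oaz2 (7.51 ± 1.13) were lowest, all SD with n = 3. In Kira8 (n = 2) Odc1 led at 295 ± 0.678 CPM per kb, then Oaz1 at 96.2 ± 4.64, Sat1 at 88.2 ± 1.56 and Smox at 71.3 ± 1.28. Srm, Azin1 and Amd1 lay close together at 25.2, 23.8 and 21.4, above Oaz2 and Sms at 12.2 and 11.2. In Stattic (n = 2) Odc1, Sat1 and Oaz1 stood at 222 ± 26.1, 197 ± 0.616 and 193 ± 6.25 CPM per kb, and Srm was the lowest but one at 20.2 ± 6.08. In Kira8+Stattic (n = 3) Oaz1 led at 234 ± 35.8, with Sat1 at 203 ± 42.7 and Odc1 at 194 ± 19.2, within each other's spread.

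Ratios of these levels within a library compare single members, not whole arms of the pathway. Sat1 and Srm were called in opposite directions in each comparison with None, so their ratio restates those changes. Sat1 over Srm was 0.300, 0.317 and 0.461 in None. It was 3.57 and 3.42 in Kira8, 8.04 and 12.4 in Stattic, and 5.73, 11.8 and 12.6 in Kira8+Stattic. Among these 10 libraries every inhibitor library had more Sat1 than Srm per kilobase of annotated exon, and every None library had less. The outlying libraries had ratios of 0.366 (Kira8) and 0.831 (Stattic), less Sat1 than Srm. Odc1 over Oaz1 was 1.44, 2.94 and 2.29 in None and 2.96 and 3.18 in Kira8, just above the highest None library. It was 1.22 and 1.08 in Stattic and 0.856, 0.861 and 0.776 in Kira8+Stattic, under every None library. Odc1 over Azin1 was 6.57, 6.48 and 6.01 in None, 12.9 and 11.97 in Kira8, 4.74 and 3.32 in Stattic, and 3.54, 2.35 and 2.93 in Kira8+Stattic. In the 10 libraries Kira8 lay above and the Stattic groups below None. The outlying Kira8 and Stattic libraries had 1.19 and 3.28, both under None. Their Odc1 over Oaz1 was 2.98 and 0.427. These ratios were described and not tested.

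Stattic added to Kira8 answered how the pathway looked with both agents relative to Kira8 alone. Of the 9 genes 7 were called in Kira8+Stattic against Kira8, 5 higher and 2 lower, beside 30.7% of all genes (14.7% higher, 16.0% lower). Amd1 was 4.57-fold higher (2.19 ± 0.21, adjusted p = 3.21e-05), and Azin1 (1.50 ± 0.22, adjusted p = 0.000387), Oaz1 (1.28 ± 0.20, adjusted p = 0.000591), Sat1 (1.20 ± 0.19, adjusted p = 0.000635) and Oaz2 (0.69 ± 0.17, adjusted p = 0.00839) were also higher. Smox was 2.56-fold lower (-1.36 ± 0.16, adjusted p = 0.000124) and Odc1 1.52-fold lower (-0.61 ± 0.20, adjusted p = 0.0337). Srm (-0.23 ± 0.23, adjusted p = 0.483) and Sms (-0.27 ± 0.18, adjusted p = 0.279) were not called. The Odc1 call was lost without any 1 of the Kira8 or Kira8+Stattic libraries, with adjusted p from 0.0547 to 0.155, and without the filter on low counts (adjusted p = 0.0532). The Oaz2 call was lost without Kira8 replicate 3 (0.60, adjusted p = 0.111).

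Stattic against Kira8 gave a like picture from a partly shared set of libraries, with 6 of 9 genes called, 5 higher and 1 lower, beside 28.7% of all genes (13.7% higher, 15.1% lower). Amd1 (2.21 ± 0.22), Azin1 (1.24 ± 0.23), Sat1 (1.16 ± 0.20), Oaz1 (1.00 ± 0.21) and Oaz2 (0.88 ± 0.18) were higher with Stattic, and Smox was lower (-1.18 ± 0.18). Odc1 differed by -0.41 ± 0.22 (adjusted p = 0.180), Sms by -0.42 ± 0.20 (adjusted p = 0.133) and Srm by -0.32 ± 0.25 (adjusted p = 0.372). Without Kira8 replicate 3 the calls of Oaz1 (0.95, adjusted p = 0.0504) and Oaz2 (0.79, adjusted p = 0.0546) were lost. Over all 12 libraries no member was called in either of these comparisons, nor was any other gene (0%), with 2536 and 2491 genes at an unadjusted p under 0.05. Amd1 had a log2 difference there of 2.55 ± 0.72 (Kira8+Stattic against Kira8) and 2.07 ± 0.70 (Stattic against Kira8).

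Kira8 added to Stattic left no member called. The log2 differences of Kira8+Stattic from Stattic ran from -0.20 ± 0.20 (Odc1) to 0.28 ± 0.19 (Oaz1), each with an adjusted p of 1 in edgeR. In this comparison 0.0141% of all genes were called by edgeR, 3 genes, with 874 at an unadjusted p under 0.05, and DESeq2 called 51 genes, none of them a member. The smallest unadjusted p among the 9 genes was 0.169, for Oaz1. In all 12 libraries the differences ran from 0.26 to 0.71, again with no call (0% of all genes, 1050 at an unadjusted p under 0.05). A difference that missed the threshold here does not show equal levels.

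Whether the Kira8 change depended on Stattic was tested as an interaction, in which the log2 change of Kira8 against None is subtracted from that of Kira8+Stattic against Stattic. It was called for 5 of the 9 genes, 2 positive and 3 negative, beside 8.52% of all genes (4.55% positive, 3.97% negative). Smox had the largest, at -2.60 ± 0.23 (adjusted p = 0.000325), since Kira8 changed it by 2.42 alone and by -0.18 on top of Stattic. Srm followed at 2.34 ± 0.34 (adjusted p = 0.00289), from -2.25 alone to 0.09, and Amd1 at 1.58 ± 0.28 (adjusted p = 0.0073), from -1.60 to -0.02. Sat1 (-1.03 ± 0.25, adjusted p = 0.0288) and Oaz2 (-0.90 ± 0.23, adjusted p = 0.0326) were nearer the threshold. For these 5 genes the Kira8 change on top of Stattic was between -0.19 and 0.09. The interaction was not called for Sms (0.78 ± 0.26, adjusted p = 0.0817), Azin1 (0.84 ± 0.29, adjusted p = 0.103), Odc1 (-0.59 ± 0.28, adjusted p = 0.222) or Oaz1 (0.41 ± 0.27, adjusted p = 0.394). Sat1 lost its call in 6 of the 10 fits that left out 1 library and Oaz2 in 8 of them, and with library quality weights on all 12 neither was called (-0.90, adjusted p = 0.127, and -0.81, adjusted p = 0.0851). With a term for replicate number added to the fit, Oaz2 also lost its call (-0.81, adjusted p = 0.0804). In all 12 libraries no interaction was called (0% of all genes, 3542 at an unadjusted p under 0.05), the values of Sat1 and Oaz2 were 0.01 ± 1.23 and -0.11 ± 0.90, and those of Smox, Srm and Amd1 were -1.63 ± 1.09, 2.36 ± 0.51 and 2.46 ± 0.97.

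**Figure D3:**
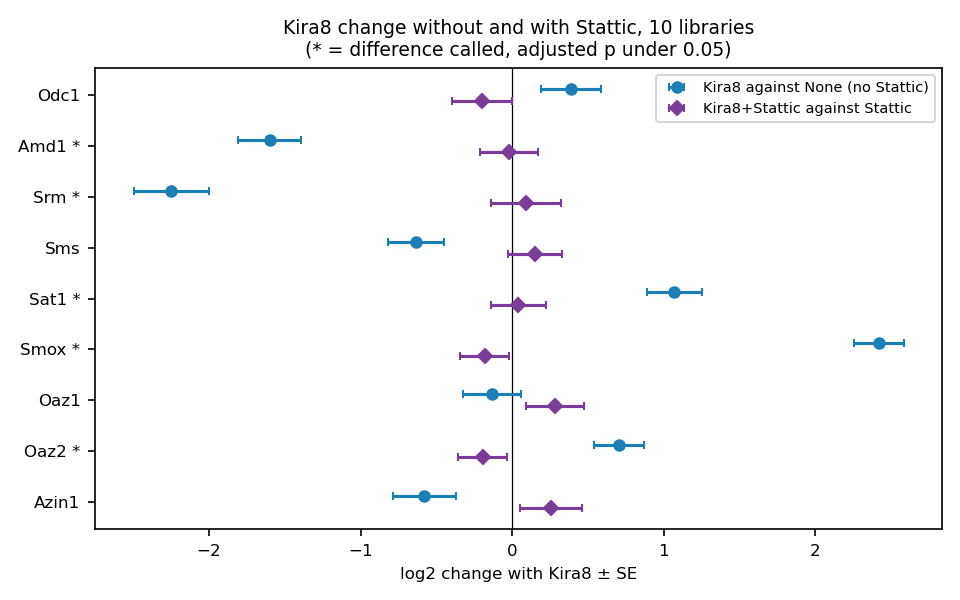
Log2 change with Kira8 ± SE for the 9 genes, without Stattic (blue circles, Kira8 against None) and in its presence (purple diamonds, Kira8+Stattic against Stattic), 10 libraries. Asterisks mark the genes whose 2 changes differed at an adjusted p under 0.05. The diamonds all lie between -0.20 and 0.28, while the circles run from -2.25 (Srm) to 2.42 (Smox).

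Across the 10 libraries some of the members fell into opposed sets, as a description without a test, since the points share the treatment groups. Srm and Sms moved together (Pearson r = 0.92 on log2 CPM), and both ran against Sat1 (r = -0.92 and -0.92) and Oaz2 (r = -0.90 and -0.93). Sat1 and Oaz2 had r = 0.98, and Amd1 and Azin1 had r = 0.92. Odc1 and Amd1 did not follow Srm (r = 0.05 and -0.11), and Smox had r = 0.45 with Sat1 and -0.72 with Srm. Among the 9649 genes with a mean of at least 5 CPM, the genes most like Srm in these libraries were Tomm40, Rars2 and Hgh1 (each r = 0.99). Those most like Sat1 were Tnfrsf23, Oser1 and Carhsp1 (each r = 0.99), those most like Smox were Sestd1 (0.98), Tlcd1 (0.98) and Phf1 (0.97), and those most like Odc1 were Sla (0.93), Strbp (0.92) and Tmem39a (0.92).

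Of 29 genes listed around the pathway 27 were tested (Sat2 and Agmat did not pass the filter on low counts), and 12 were called with Kira8 (2 higher, 10 lower), 13 with Stattic (5 higher, 8 lower) and 16 with both (4 higher, 12 lower), beside 19.3%, 39.0% and 40.8% of all genes. Their median log2 change was -0.50, -0.43 and -0.47, beside 0, 0.08 and 0.09 over all genes. In the 12-library fit none of the 27 was called in these 3 comparisons. The lists below are small, and the same shares of all genes (lower alone, 9.59%, 18.9% and 20.0%) are the background of their counts. In the hypusine list 2 of 4 genes were called with Kira8, 2 with Stattic and 4 with both, all lower. Eif5a, which carries the spermidine-derived hypusine, fell from 1269, 1132 and 1074 CPM in None to 505 and 529 CPM in Kira8 (-1.16 ± 0.19, adjusted p = 0.00131). It was 772 and 554 CPM in Stattic (-0.80 ± 0.18, adjusted p = 0.00455) and 673, 549 and 663 CPM in Kira8+Stattic (-0.88 ± 0.16, adjusted p = 0.000984), all under None. The 12-library changes of Eif5a were -1.51 ± 0.56, -1.20 ± 0.55 and -0.90 ± 0.55. Dhps, the enzyme that transfers the spermidine part, fell with Stattic (-0.68 ± 0.15) and with both (-0.81 ± 0.14) and had -0.29 ± 0.15 with Kira8, which was not called.

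In the methionine cycle and salvage list 4 of 7 genes were called with Kira8, all lower, 4 with Stattic (1 higher, 3 lower) and 4 with both, all lower, where 39.0% and 40.8% of all genes were called in the latter comparisons. Mtap, which recycles the methylthioadenosine released by both synthases, had 74.6, 113 and 79.3 CPM in None and 14.9 and 14.6 CPM in Kira8. It had 23.2 and 23.2 CPM in Stattic and 25.8, 20.3 and 23.9 CPM in Kira8+Stattic, so that every inhibitor library was well under None. Its changes were -2.59 ± 0.21 (adjusted p = 3.59e-05), -1.94 ± 0.21 (adjusted p = 2.7e-05) and -1.93 ± 0.18 (adjusted p = 6.47e-06), and over all 12 libraries -2.91 ± 0.93, -2.52 ± 0.92 and -1.94 ± 0.90. Mat2a, which makes S-adenosylmethionine, fell by 1.23 ± 0.28, 1.40 ± 0.28 and 1.28 ± 0.24 on the log2 scale, and Apip was higher with Stattic (0.64 ± 0.24, adjusted p = 0.0470, but 0.37 ± 0.63 in the 12-library fit).

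Of the genes for ornithine supply and use, 1 of 4 tested was called with Kira8 and 2 with Stattic and with both, all higher, counts near the shares of all genes called (19.3%, 39.0% and 40.8%). Arg2, the mitochondrial arginase that releases ornithine, was low, at 0.173 to 0.287 CPM in None, 0.618 and 0.684 in Kira8 and 1.34 to 2.26 in Kira8+Stattic, with changes of 1.49 ± 0.45, 2.78 ± 0.45 and 2.92 ± 0.43. Oat, ornithine aminotransferase, rose with Stattic (0.57 ± 0.15) and with both (0.65 ± 0.14). Among the 5 transport genes Slc3a2 rose in all 3 comparisons (0.83 ± 0.21, 1.08 ± 0.20 and 1.04 ± 0.19), and the arginine transporter Slc7a1 fell with Stattic (-0.92 ± 0.25) and with both (-0.89 ± 0.22). Among the MYC factors, a family known to activate Odc1, Myc fell in all 3 (-1.48 ± 0.20, -1.48 ± 0.20 and -1.93 ± 0.17), as did Max (-0.58 ± 0.17, -0.59 ± 0.17 and -0.59 ± 0.15). Mycn, at 3.82 to 4.89 CPM in None and 0.114 and 0.401 CPM in Kira8, fell with Kira8 (-4.08 ± 0.50, adjusted p = 0.000286) and was not called with Stattic (-0.13 ± 0.40) or with both (-0.43 ± 0.35). The outlying Kira8 library had Mycn at 11.4 CPM, above every None library, and with the outlying pair included the Kira8 change was 0.0030 ± 1.64. Other changes of this paragraph that moved by more than 1.5 times with that pair were those of Max (-1.05 ± 0.64 with Kira8 and -1.04 ± 0.64 with Stattic) and Slc3a2 (0.55 ± 0.52 and 0.65 ± 0.52). With Stattic alone Mycn (-0.72 ± 1.63), Slc7a1 (-1.48 ± 0.81) and Oat (0.20 ± 0.83) also did. Paox, the peroxisomal polyamine oxidase, and the low-abundance Oaz3 and Azin2 were not called in any of the 3.

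**Figure D4:**
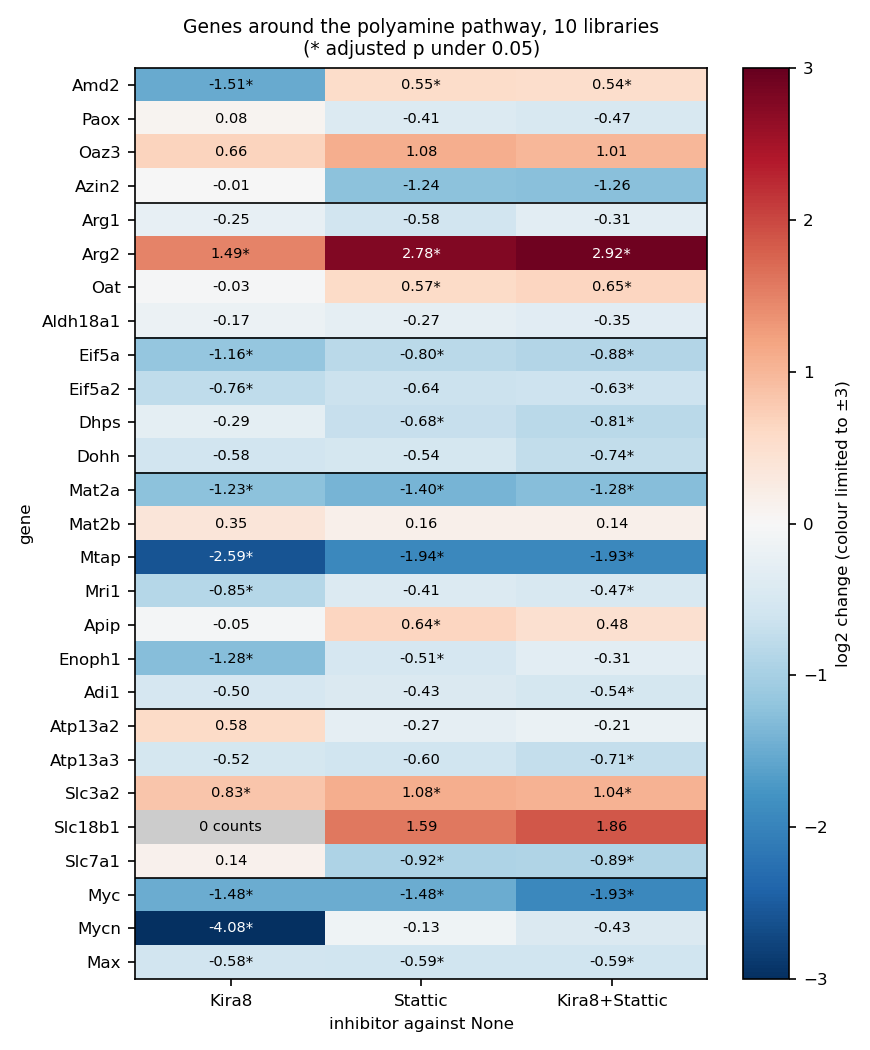
Log2 change against None of the 27 tested genes around the pathway (rows, separated by list) with Kira8, Stattic and both (columns), 10 libraries. Colour gives the change, limited to ±3, asterisks mark an adjusted p under 0.05, and the grey cell is a gene with 0 counts in both Kira8 libraries. Mtap and Myc are lower in all 3 columns (-2.59, -1.94 and -1.93, and -1.48, -1.48 and -1.93), and Slc3a2 is higher.

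The T cell markers Cd3e, Cd3d, Cd3g, Cd4 and Trac summed to 1173 to 1410 CPM in None, 1245 to 1539 in Stattic and 1214 to 1331 in Kira8+Stattic. In Kira8 they summed to 900 to 1040 CPM, under every None library. Against None 2 of the 5 were called with Kira8 (both lower), 4 with Stattic (2 higher, 2 lower) and 3 with both (1 higher, 2 lower). Of all genes 19.3%, 39.0% and 40.8% were called in these comparisons (9.70%, 20.1% and 20.8% higher). Markers of other cells also moved with the treatments. The 6 B cell markers summed to 113 to 130 CPM in None, 36.9 to 45.0 in Kira8, 14.1 to 24.2 in Stattic and 16.5 to 33.5 in Kira8+Stattic, with 4, 6 and 5 of the 6 called lower against None (9.59%, 18.9% and 20.0% of all genes). The 6 markers of CD8 T and NK cells summed to 181 to 309 CPM in None and 57.3 to 72.8, 109 to 148 and 82.5 to 127 in the inhibitor groups, where Ncr1 was at 0. The 5 Th17 markers summed to 649 to 2655 CPM in None and to 402 to 486 in the inhibitor groups. Of them 2, 4 and 4 were called lower (9.59%, 18.9% and 20.0% of all genes). The 6 myeloid markers summed to 24.8 to 40.7 CPM in None and 17.6 to 97.0 in the others. No other marker was at 0 in every library of a group. The part of these shifts in the polyamine changes was not tested.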

How the data were processed

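Total RNA of 12 mouse libraries was sequenced. The authors deposited a single table of raw read counts per Ensembl gene, whole numbers in all 12 columns, and each column was matched to a sample by its title. Per the labels' protocols RNA was extracted with Trizol and had an integrity number above 7.0, and per the submitters' processing notes the build was mm10. Aligner, counter and strand setting: not given in the sources used here. Values of genes with a near-identical copy or an overlapping neighbour are therefore uncertain.

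The members and the gene lists were chosen with earlier results of these data known, and so was the choice to leave Kira8 replicate 2 and Stattic replicate 2 out of the first fit. From the counts, genes were kept with filterByExpr, scaled by TMM and tested with edgeR 4.0.16 (glmQLFit and glmQLFTest, R 4.3.3) with 1 coefficient per group and Benjamini-Hochberg adjustment over all genes tested, 21239 in 10 libraries and 20993 in 12. The SE is the size of the log2 change divided by the square root of F. Levels use the TMM factors of the 10 libraries, and those of the outlying pair the factors of the 12. Length per kilobase is the union of exons in GENCODE for mm10. All 9 members were named, and related genes were named by default where called with the largest or smallest change of their list. The genes most like Odc1, Srm, Sat1 and Smox were the 3 with the highest Pearson correlation of log2(CPM + 0.5). Alternatives were DESeq2 1.42.0, limma 3.58.1 (voom, with and without library quality weights), scaling by RLE or by library size, a filter of 1 CPM reached in 2 libraries or none, a block on replicate number, fits limited to the compared groups, and fits that each omit a library. Added after the data were examined were fits that leave out only 1 of the outlying pair and members summed with their near-identical copies. The fit was tested on simulated counts with known changes. No 2 libraries of the same group agreed within sampling noise.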

Additional observations from a re-analysis of the deposited data

Results flagged for a closer look

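The change with Kira8 differed, by the test of the interaction in the 10 libraries, between cells without and with Stattic for 5 of the 9 members and 7 of the 27 related genes tested, beside 8.52% of all genes. Each value here is the log2 change of Kira8+Stattic against Stattic minus that of Kira8 against None, with its SE and edgeR's adjusted p. Positive values were found for Srm (2.34 ± 0.34, adjusted p = 0.00289), Amd1 (1.58 ± 0.28, adjusted p = 0.0073) and its near-identical copy Amd2 (1.50 ± 0.28, adjusted p = 0.00858), whose reads cannot be divided with certainty. In methionine salvage and S-adenosylmethionine synthesis they were found for Mtap (2.60 ± 0.28, adjusted p = 0.000935), Enoph1 (1.48 ± 0.25, adjusted p = 0.00629) and Mat2a (1.36 ± 0.38, adjusted p = 0.0490). Eif5a had 1.09 ± 0.26 (adjusted p = 0.0243), Myc 1.03 ± 0.27 (adjusted p = 0.0352) and Mycn 3.78 ± 0.63 (adjusted p = 0.00548). All 9 of these genes were lower with Kira8 alone, by values from -4.08 (Mycn) to -1.16 (Eif5a), and on top of Stattic their Kira8 changes ran from -0.45 (Myc) to 0.20 (Enoph1). Negative values were found for Smox (-2.60 ± 0.23, adjusted p = 0.000325), Sat1 (-1.03 ± 0.25, adjusted p = 0.0288) and Oaz2 (-0.90 ± 0.23, adjusted p = 0.0326), all of which rose with Kira8 alone. These opposite signs largely follow from how the interaction is formed and are not a separate result. It subtracts the change with Kira8 alone, and 3 of 21239 genes were called in Kira8+Stattic against Stattic. Over all 12 libraries none of the 12 was called and 0% of all genes were. The values there were 0.27 ± 2.31 for Mycn, 0.88 ± 0.61 for Amd2, -0.11 ± 0.90 for Oaz2, 0.01 ± 1.23 for Sat1 and -1.63 ± 1.09 for Smox, and between 1.82 (Eif5a) and 3.49 (Mtap) for the other 7. The T cell marker list had no such difference called among its 5 genes, while 3 of 6 B cell markers and 2 of 5 tested markers of CD8 T and NK cells did, and the part of those cells in these values was not tested.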

How the results depend on the processing

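Comparisons are listed in the order Kira8, Stattic and Kira8+Stattic against None, Kira8+Stattic against Kira8, Stattic against Kira8, and the interaction. For these 6, the main numbers of members called were 6, 8, 8, 7, 6 and 5, and of related genes 12, 13, 16, 9, 7 and 7. In all 12 libraries edgeR called 0, 1, 1, 0, 0 and 0 members and 0 related genes in each, and 0, 65, 57, 0, 0 and 0 of 20993 genes. With only Kira8 replicate 2 left out it called 0, 1, 1, 0, 0 and 0 members and 0, 0, 0, 1, 1 and 0 related genes (0, 1199, 694, 27, 72 and 0 of 21964 genes), and with only Stattic replicate 2 left out 1, 2, 2, 2, 1 and 0 members and 1, 1, 2, 0, 0 and 0 related genes (88, 644, 1053, 342, 159 and 0 of 22058 genes), both settings chosen after seeing the data. Library quality weights on all 12 gave 3 members in the interaction (1545 of 20993 genes) and 4 related genes in Stattic against Kira8 (6810 genes). A fit of only the groups compared gave 8 related genes for Stattic against None (6735 of 19261 genes). DESeq2 called 7, 8, 8, 7, 6 and 7 members, beside 5300, 9198, 9525, 7753, 7386 and 3119 of 21239 genes. Edger's main fit called 4097, 8281, 8676, 6514, 6106 and 1810 of them. Leaving out each of the 10 libraries in turn gave 4 to 7, 6 to 8, 7 to 8, 5 to 7, 4 to 6 and 3 to 7 members, and 7 to 13, 8 to 14, 12 to 18, 4 to 10, 3 to 9 and 3 to 8 related genes. The number of all genes called changed across these fits as well, so the ranges are not read as a result about the members. With a single library left in Kira8 or Stattic, that library was assumed to vary like the other groups. Kira8+Stattic against Stattic kept 0 members and 0 related genes throughout these settings.

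Of 63 pairs of a member and a comparison, 40 were called, 29 of them under every alternative on the 10 libraries, and no called pair changed sign there. In all 12 libraries the called Sat1 interaction changed sign, to 0.013. The other values that changed sign were not called. In Kira8+Stattic against Stattic they were, in all 12 libraries and with only Kira8 replicate 2 left out, Odc1 (0.26 and 0.27), Amd1 (0.48 and 0.49), Smox (0.35 and 0.35) and Oaz2 (0.31 and 0.32), and Amd1 with quality weights (0.033). With each of the 10 libraries left out in turn, values in the same comparison ran from -0.12 to 0.089 for Amd1, from -0.19 to 0.44 for Srm, from -0.0012 to 0.32 for Sms and from -0.11 to 0.21 for Sat1. Odc1 with Stattic then ran from -0.15 to 0.19 and Oaz1 with Kira8 from -0.24 to 0.045. Odc1 had -0.14 with Kira8 in all 12 libraries and -0.14 with only Stattic replicate 2 left out, 0.093 in Stattic against Kira8 with only Stattic replicate 2 left out, and 0.40 as its interaction in all 12. Odc1 with Stattic had 0.036 under the filter of 1 CPM and 0.051 with the replicate block. Sms in Kira8+Stattic against Kira8 had 0.12 in all 12 libraries and 0.12 with only Stattic replicate 2 left out. The cause of these shifts was not tested.

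The labels do not say that a replicate number marks a shared source. Same-numbered libraries of different groups had correlations of their deviations from -0.0089 to 0.211 over 13 pairs, 12 of them positive and 8 over 0.1. The 24 pairs with different numbers ran from -0.211 to 0.165, with 6 positive. Of 10 libraries 9, all but None replicate 2, correlated best with one of their own number, a hint from the data and not from the design. Deviations were taken from group means, so the 2 Kira8 libraries mirror each other, as do the 2 Stattic libraries. Their values recur with opposite sign, and these counts are not independent. The main fit did not take the numbers as pairing, since the labels name no shared source. It therefore does not allow for any effect common to a replicate number. With the replicate block 5, 8, 8, 7, 6 and 4 members were called, beside 4423, 8062, 8947, 6660, 6519 and 1784 of 21239 genes. The calls lost were Sms with Kira8 (-0.58, adjusted p = 0.0568) and the Oaz2 interaction (-0.81, adjusted p = 0.0804). In the 10 libraries 3 counts, the least taken as detection, amount to 0.0349 to 0.0581 CPM. In Stattic replicate 2 they amount to 0.323 CPM.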
